A study of Mus musculus with 8 samples.

Results

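The miRNA families miR-466, miR-467, miR-669 and miR-297 were followed on 8 one-colour Agilent arrays of exosomal RNA from mouse amniotic fluid. Members were taken by name alone, and 61 of the 1881 mouse miRNA names on the array belonged to the 4 families: 3 to miR-297, 23 to miR-466, 12 to miR-467 and 23 to miR-669. They were read by 162 of the 4415 miRNA probes. The LPS group comprised 4 samples of premature births after lipopolysaccharide, a bacterial endotoxin, had been injected into the abdomen at 100 μg per kg body weight on day 14 of pregnancy. Birth followed about 48 h later. The control group comprised 4 samples taken by cesarean section, and its source label names no LPS. All 8 carry a label of day 17 of pregnancy. A birth about 48 h after day 14 would precede day 17, so stage and treatment cannot be told apart from the labels. With the mouse strain not given in the sources used here, and no label for the dam or litter of a sample, p-values reflect the spread among the 8 samples, which may be technical.

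Sfmbt2 encodes a Polycomb group protein needed by trophoblast, the outer cell layer that builds the placenta. In mouse and rat, an intron of this gene holds a long tandem cluster of miRNA genes made up mainly of these 4 families. The gene is imprinted, with expression from the paternal copy in extraembryonic tissue, and the miRNAs are known above all from the placenta, whose growth is impaired when the cluster is lost. Their hairpins grew out of simple repeats, so many mature sequences hold stretches of alternating bases that differ by only a few positions. A probe on the array is complementary to the 3′ part of a mature miRNA, so a stretch of GT in a probe reads a stretch of AC in the miRNA, and a stretch of CA in a probe reads UG.

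The probe sequences are shown because the arrays set the members apart along this feature. Each is printed 5′ to 3′ as in the array files, and capitals mark its longest run of alternating GT or CA bases where that run had at least 8 bases. Tested members, defined with the detection counts, fell into 3 classes. The first class had no such run, and 6 tested members belonged to it. Examples with their family and arm are these.
miR-467b-5p: catatacatgcaggcact
miR-467e-5p: acatatacatgctcacact
miR-467a-5p: cgcatatacatgcaggca
miR-466b-3p: tcttatgtgtgcgtgta
miR-297a-3p: tatgggtatgtgtgtatgt
The second class had a GT run, and 10 tested members belonged to it, with runs of 8 to 12 bases.
miR-467a-3p: tgtagGTGTGTGTatgtata
miR-467d-3p: gtgtagGTGTGTGTatg
miR-669f-3p: atacGTGTGTGTGTatgt
miR-466i-3p: tagtgtgtaTGTGTGTGTG
miR-669c-3p: tttactTGTGTGTGTGTG
miR-669p-3p: atacGTGTGTGTGTGT
miR-466q: acgtaTGTGTGTGTGTG
miR-467f: tgtagGTGTGTGTGTGT
The third class had a CA run. It held miR-466i-5p, whose 16 probe bases are all repeat, and miR-669n.
miR-466i-5p: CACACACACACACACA
miR-669n: acacacatcCACACACAa

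RefSeq (GRCm38.p6) gave a mature sequence for 7 of the 61 members, 4 of them tested. They are printed with the seed, bases 2 to 8, in capitals, since the seed is what a miRNA pairs with its targets.
miR-466i-3p: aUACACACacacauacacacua
miR-466q: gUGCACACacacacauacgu
miR-467f: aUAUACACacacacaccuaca
miR-669n: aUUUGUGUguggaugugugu
These 4 miRNAs lie at chr13:17747552-17747573 (plus strand), chr3:28419988-28420007 (plus strand), chr11:69635419-69635439 (minus strand) and chr3:115979905-115979924 (plus strand) of GRCm38.p6, in that order. Each seed differed from the other 3, although 3 of them end in ACAC. The miR-466i-3p probe covers mature bases 4 to 22, that of miR-466q 4 to 20, that of miR-467f 5 to 21 and that of miR-669n 3 to 20. Each probe therefore reads the 3′ part of the seed and not its first bases.

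The run is a mark of these families on the array. A stretch of 8 alternating bases (GTGTGTGT or TGTGTGTG, or ACACACAC or CACACACA of the other strand, which overlap each other within a run) occurred in 61 of 162 member probes (37.7%) and in 14 of the 4253 other probes (0.329%), against 1.70% of all 4415 probes. By the probe that stands for each name, 19 of the 61 members held a run. Tested members shared bases with each other as well. Of the 153 pairs among 18 tested members, 14 had at least 12 identical probe bases in a row, led by 17 for miR-466f-3p and miR-466i-3p and 16 each for miR-467a-3p with miR-467d-3p and miR-467a-5p with miR-467b-5p. Readings of such pairs are not independent, and how far each probe binds its neighbours' miRNAs was not tested.

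Position was checked against the name. Per the array files, which use mm9, 81 member probes mapped to chromosome 2 from 10388918 to 10438764, here called the interval, 2 mapped elsewhere and 79 had no listed position. None of the 4253 other probes mapped to the interval. The bounds of Sfmbt2 on mm9 were not used here, so the interval is known by the members it holds. In RefSeq, 71 of 81 genes of the 4 families lie within Sfmbt2, and 51 of the 61 members have all their genes there, 8 have all of them elsewhere and 2 have genes in both places. The label of the Sfmbt2 intron cluster thus holds for most members. The 8 with all genes elsewhere are miR-466i-3p, miR-466i-5p, miR-466q, miR-467f and miR-669n, which were tested, and miR-466j, miR-466k and miR-467g, which were not. The tandem layout shows in the positions of single probes. The miR-466b-3p probe maps to 11 places, from chr2:10395901-10395917 to chr2:10425247-10425263, and those of miR-467a-5p and miR-467a-3p map to 10 places each, with the first of miR-467a-5p at chr2:10397986-10398003 and the first of miR-467a-3p at chr2:10398019-10398038, a short step apart, as both arms of a hairpin are. Probes of miR-467b-5p (chr2:10402887-10402903), miR-467c-5p (chr2:10395572-10395589), miR-467e-5p (chr2:10427362-10427379), miR-669f-3p (chr2:10388918-10388934) and miR-669c-3p (chr2:10430991-10431007) have 1 place each. The miR-669n probe maps to chr2:10430951-10430967 although its RefSeq gene is on chromosome 3, and the same probe also reads miR-669c-5p. Probes of 11 members read more than 1 miRNA name in this way.

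Most members were not detected. A member was taken as well above background on an array when the scanner software called a share of at least 0.5 of its probe's spots so. This held for 22 of 61 members on at least 1 array and for 8 on all 8 arrays: miR-466h-3p, miR-466i-5p, miR-467a-3p, miR-467b-5p, miR-467d-3p, miR-467e-5p, miR-669f-3p and miR-669n. The miR-467 family was seen most completely, with 7 of its 12 names above background somewhere and 4 on every array. The other families had 8 of 23 (miR-466), 6 of 23 (miR-669) and 1 of 3 (miR-297) above background somewhere. Cesarean replicates 1 to 4 had 18, 19, 12 and 9 members above background, and LPS replicates 1 to 4 had 11, 21, 19 and 19. The groups overlapped: LPS replicate 1 lay below 3 of the cesarean arrays, and the mean count was higher by 3 with LPS. Detection over all 1881 miRNAs ranged from 403 to 534 per array, lowest on LPS replicate 1 and highest on cesarean replicate 1.

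**Figure D1:**
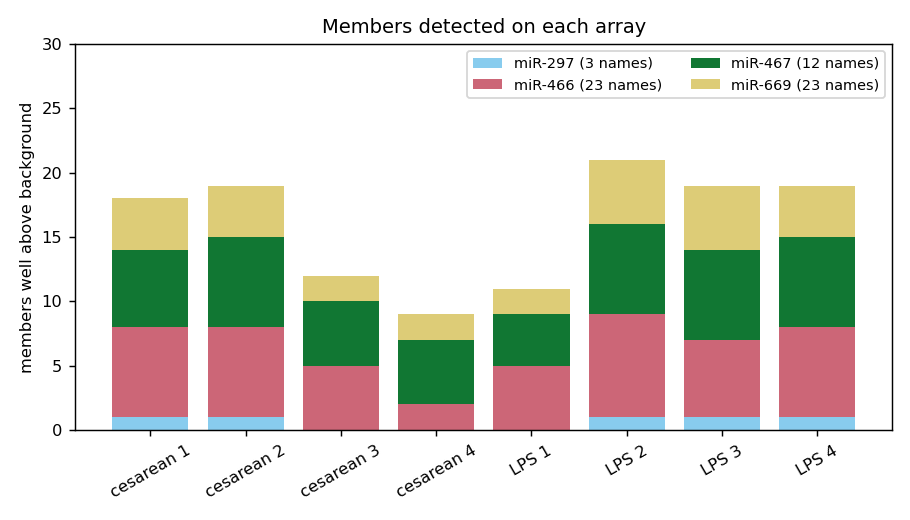
Number of members well above background (y axis) on each of the 8 arrays (x axis), stacked by family with the number of names in each family in the key. The miR-466 and miR-467 names make up most of every bar, and the totals run from 9 on cesarean replicate 4 to 21 on LPS replicate 2.

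Of the members that stayed out of the test, 4 were above background somewhere. These were miR-466d-3p on 1 LPS array, miR-466g on 2 arrays of each group, miR-669b-5p on 1 cesarean array and miR-669l-5p on 2 LPS arrays. The other 39 were not well above background on any array. The test took in miRNAs that 3 or 4 arrays of 1 group, or of both, showed well above background, which 18 members and 470 miRNAs of the whole array met. Of the 18 members, 6 met this through the LPS group alone: miR-297a-3p, miR-466b-3p, miR-467a-5p and miR-467c-5p, with no run, and miR-669c-3p and miR-669p-3p, with a GT run. Selection through the LPS group alone favours members that lie higher with LPS. The counts and medians over the 18 thus describe the tested names and not the families, and none of them supports a direction. No member was above background on 3 arrays of 1 group and on none of the other.

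Levels are given as log2 of the background-subtracted signal after each array was scaled to a common 75th percentile, and they were set to a floor of 3.75 where they fell below it. They compare arrays for 1 probe, not probes with each other. Each member is represented by its brightest probe. Differences are LPS minus cesarean on the log2 scale, with SE and adjusted p from limma and Benjamini-Hochberg adjustment over all 470 miRNAs, and the threshold was 0.05.

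No member passed that threshold in either direction, although 17 of the 18 lay higher with LPS. Over the whole array 23 of 470 miRNAs passed (4.89%), 12 of them higher with LPS (2.55%) and 11 lower (2.34%). At an unadjusted p of 0.05, 118 miRNAs passed (25.1%), 65 of them higher (13.8%), and 8 of the 18 members were among those higher: miR-467a-3p, miR-467a-5p, miR-467b-5p, miR-467c-5p, miR-467d-3p, miR-467e-5p, miR-466b-3p and miR-466i-3p. The median difference was 1.06 over the tested members and -0.06 over all tested miRNAs, of which 45.5% had a difference above 0. The SD between arrays of the members' mean, pooled within groups, was 0.74. That mean ran from 4.95 to 5.25 on the cesarean arrays and from 5.03 to 7.40 on the LPS arrays. Without LPS replicate 1, 79 miRNAs passed over the whole array and 6 members did: miR-466b-3p, miR-467a-3p, miR-467a-5p, miR-467b-5p, miR-467d-3p and miR-467e-5p, all higher with LPS.

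The smallest adjusted p-values among the members were those of miR-467b-5p and miR-467e-5p, 5p arms with no run in the probe. The GT-run member miR-467a-3p came next. The other tested 5p arms of miR-467, miR-467a-5p and miR-467c-5p, had been tested through the LPS group alone. These arms lie in the interval and are the strands opposite the AC-rich 3p arms. The level of miR-467b-5p on cesarean replicates 1 to 4 was 4.81, 5.25, 4.77 and 5.37, and on LPS replicates 1 to 4 it was 5.54, 6.98, 5.93 and 6.25. Every LPS array lay above every cesarean array, with a mean of 6.18 ± 0.61 against 5.05 ± 0.31 (SD, n = 4 each). The difference was 1.13 ± 0.32 (SE; limma adjusted p = 0.0696), or 2.18-fold. With the 75th percentile taken over all probes this member passed (limma adjusted p = 0.0450), as it did after quantile normalization and in the authors' value table. Other settings moved it further from the threshold. The limma adjusted p was 0.396 without scaling, 0.419 with spike-in scaling and 0.400 without a filter. It was 0.215 with normexp background correction, where the difference was 0.58, and 0.113 with totals from the scanner software. Its side of the threshold thus depended on the processing, while its difference stayed above 0.

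The level of miR-467e-5p was 4.28, 4.87, 4.25 and 4.98 on the cesarean arrays and 5.14, 6.24, 5.45 and 5.49 on the LPS arrays. Again the groups did not overlap, with a difference of 0.99 ± 0.30 (SE; limma adjusted p = 0.0771). The other 5p arms of the family lay at or near the floor in cesarean samples. For miR-467a-5p the cesarean values were all 3.75, and LPS replicates 1 to 4 read 3.75, 5.70, 4.46 and 4.70, so LPS replicate 1 was at the floor too. The scanner software still called this member well above background on 2 cesarean arrays, so a value at the floor does not mean absence. For miR-467c-5p the cesarean values were 3.75, 3.75, 3.75 and 3.81, and the LPS values were 3.91, 5.25, 4.29 and 4.41, with no overlap. The differences were 0.90 ± 0.36 for miR-467a-5p and 0.70 ± 0.29 for miR-467c-5p (SE), and neither passed (limma adjusted p = 0.165 and 0.167). Values at the floor have no order, so these differences depend on where the floor lies.

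The remaining members without a run were 3p arms. miR-466b-3p, whose probe fits 11 copies in the interval, read 3.75, 4.45, 3.75 and 3.75 on the cesarean arrays and 4.17, 6.80, 4.93 and 5.13 on the LPS arrays. Only cesarean replicate 2 and LPS replicate 1 overlapped, and the difference was 1.33 ± 0.49 (SE; limma adjusted p = 0.129). miR-297a-3p, the 1 tested name of its family, read 3.75, 4.09, 3.75 and 3.75 against 3.96, 5.07, 4.01 and 4.18, a difference of 0.47 ± 0.28 (SE; limma adjusted p = 0.325).

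**Figure D2:**
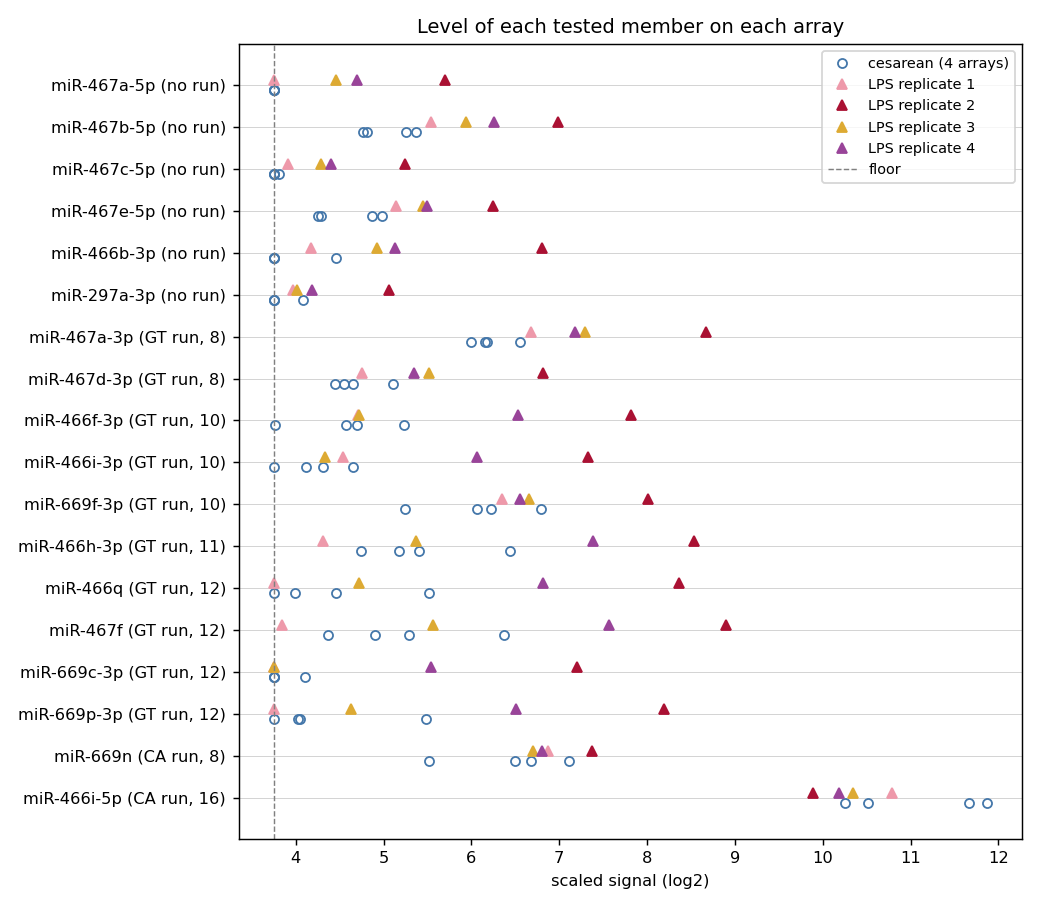
Level (x axis, scaled signal on the log2 scale) of the 18 tested members (y axis, with the class and length of the run in the probe) on the 4 cesarean arrays (circles) and the 4 LPS arrays (triangles, 1 colour each), with the floor of 3.75 as a dashed line. Compare arrays within a line, not lines with each other; LPS replicate 2 is rightmost in 17 of 18 lines.

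Members with a GT run had differences as large, but for most of them the LPS arrays were further apart. The exceptions were miR-467a-3p, miR-467d-3p and miR-669f-3p, with an SD over the LPS arrays of 0.85, 0.87 and 0.75. These lay within the range of the members with no run (0.47 to 1.11). The GT-run member miR-467a-3p, with a run of 8 bases, read 6.16, 6.56, 6.0 and 6.18 on the cesarean arrays and 6.68, 8.67, 7.29 and 7.18 on the LPS arrays. This was the only GT-run member whose groups did not overlap, with a difference of 1.23 ± 0.39 (SE; limma adjusted p = 0.0817). Its close relative miR-467d-3p, also with a run of 8, read 4.65, 5.10, 4.44 and 4.55 against 4.75, 6.82, 5.51 and 5.34, where LPS replicate 1 lay below cesarean replicate 2 (difference 0.92 ± 0.40, SE; limma adjusted p = 0.181). Over all tested members the groups did not overlap for 4, all higher with LPS and all of the miR-467 family, against 17.0% of all tested miRNAs, or 9.79% counting those higher with LPS.

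With longer GT runs the groups overlapped for every member. miR-466f-3p read 5.23, 4.57, 4.69 and 3.76 on the cesarean arrays and 4.71, 7.82, 4.72 and 6.53 on the LPS arrays. LPS replicates 1 and 3 lay within the cesarean range and replicates 2 and 4 far above it, which gave 1.38 ± 0.66 (SE; limma adjusted p = 0.220). miR-466i-3p, which maps to chr13:17839390-17839407 of mm9 and not to the interval, behaved alike: 4.65, 4.31, 4.12 and 3.75 against 4.54, 7.33, 4.33 and 6.06 (difference 1.36 ± 0.59, SE; limma adjusted p = 0.181). miR-669c-3p in the interval read 4.10, 3.75, 3.75 and 3.75 against 3.75, 7.20, 3.75 and 5.54, so that LPS replicates 1 and 3 were both at the floor (difference 1.22 ± 0.67, SE; limma adjusted p = 0.273). miR-669f-3p read 6.06, 6.79, 5.24 and 6.22 against 6.35, 8.01, 6.65 and 6.56, and only LPS replicate 2 lay above all cesarean arrays (difference 0.81 ± 0.43, SE; limma adjusted p = 0.254).

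A further 4 tested members, described after their values were seen, all had GT runs of 11 or 12 bases. miR-467f read 6.37, 4.91, 5.29 and 4.37 on the cesarean arrays and 3.84, 8.90, 5.56 and 7.57 on the LPS arrays, so LPS replicates 1 and 2 were its lowest and highest arrays, the first of them near the floor. miR-466q read 5.51, 4.0, 4.46 and 3.75 against 3.75, 8.37, 4.72 and 6.81. miR-669p-3p, which lies in the interval at chr2:10410802-10410817 and at chr2:10418183-10418198, read 5.49, 4.05, 4.02 and 3.75 against 3.75, 8.20, 4.62 and 6.51. These 3 members and miR-466h-3p had the same order at the top, with LPS replicate 2 first and LPS replicate 4 second. Their differences were 1.23 ± 0.94 (miR-467f), 1.48 ± 0.87 (miR-466q), 1.44 ± 0.84 (miR-669p-3p) and 0.96 ± 0.81 (miR-466h-3p), each SE.

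The CA-run members did not share this pattern. miR-466i-5p was the 1 tested member lower with LPS. It read 10.25, 10.52, 11.87 and 11.66 on the cesarean arrays and 10.79, 9.89, 10.34 and 10.18 on the LPS arrays, and cesarean replicates 3 and 4 stood above all others. The difference was -0.77 ± 0.39 (SE; limma adjusted p = 0.247). miR-669n read 5.52, 6.50, 6.68 and 7.12 against 6.87, 7.37, 6.70 and 6.80, a difference of 0.48 ± 0.34 (SE; limma adjusted p = 0.399), and cesarean replicate 1 was the lowest array for it.

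**Figure D3:**
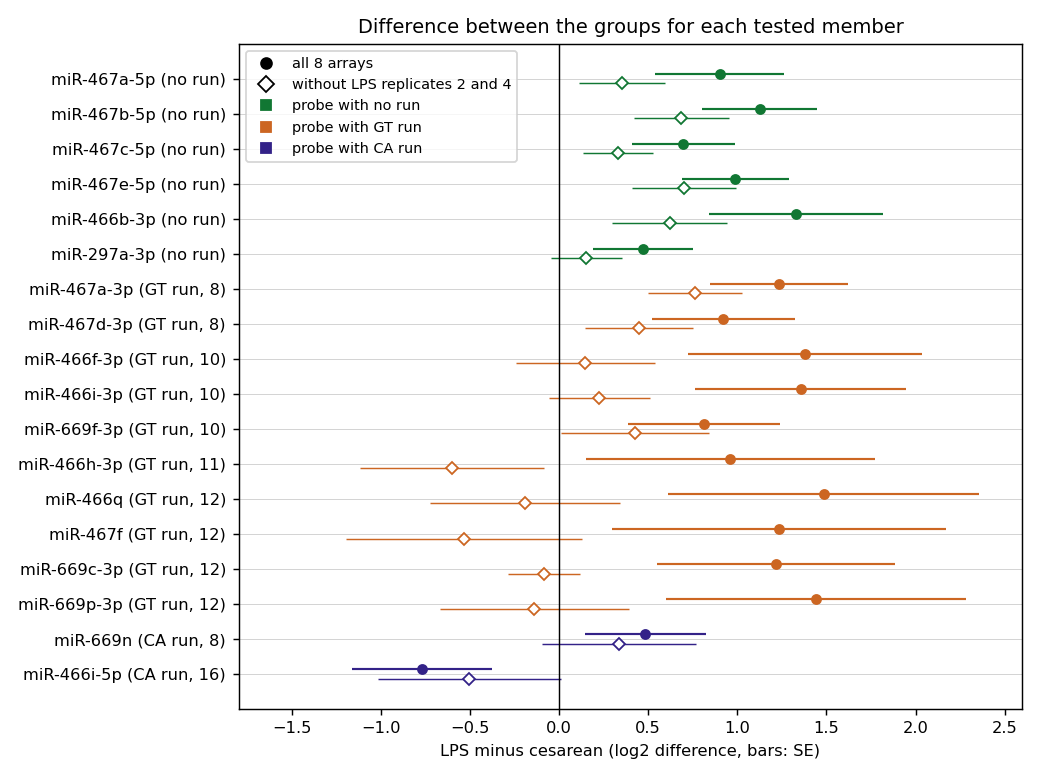
Difference between LPS and cesarean arrays (x axis, log2, bars are SE) for each tested member (y axis), from all 8 arrays (filled circles) and without LPS replicates 2 and 4 (open diamonds), coloured by the class of the probe. Without those arrays 5 GT-run members lie below 0. Members such as miR-467a-5p, with all cesarean arrays at or near the floor, could hardly do so.

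Much of the difference lay in a pair of LPS arrays. LPS replicate 2 gave the highest level of the 8 arrays for 17 of 18 members, and LPS replicate 4 came second for 13 of them. Relative to the cesarean mean, the 6 members with no run stood on average at 0.26, 1.85, 0.69 and 0.87 on LPS replicates 1 to 4. The 10 GT-run members stood at -0.26, 3.08, 0.35 and 1.65, so they spanned 0 and reached further on replicates 2 and 4. Without LPS replicates 2 and 4, a choice made with the results known, the median difference fell to 0.28 and no member passed. The 6 members with no run lay between 0.15 and 0.70 there. However, 4 of them had been tested through the LPS group alone, with cesarean arrays at the floor, and had little room to fall below 0. The 2 no-run members with no array at the floor, miR-467b-5p and miR-467e-5p, stood at 0.69 and 0.70. The members that turned below 0 all had a GT run and were miR-466h-3p (-0.60), miR-467f (-0.53), miR-466q (-0.19), miR-669p-3p (-0.14) and miR-669c-3p (-0.088). Of these, miR-669p-3p and miR-669c-3p had been tested through the LPS group alone as well.

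The spread over arrays was also described by class. For the members with no run the SD over 4 LPS arrays ranged from 0.47 to 1.11, and for the GT-run members from 0.75 to 2.23. In each of these classes 4 members had at least 1 cesarean array at the floor, which narrows the cesarean SD, so the SDs of the groups are not compared. Within the cesarean group, replicate 1 was the highest array for 7 of the 10 GT-run members and for 0 of the 6 with no run. The GT-run mean of cesarean replicate 1 stood 0.56 above the cesarean mean, while that of the members with no run stood at -0.14.

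**Figure D4:**
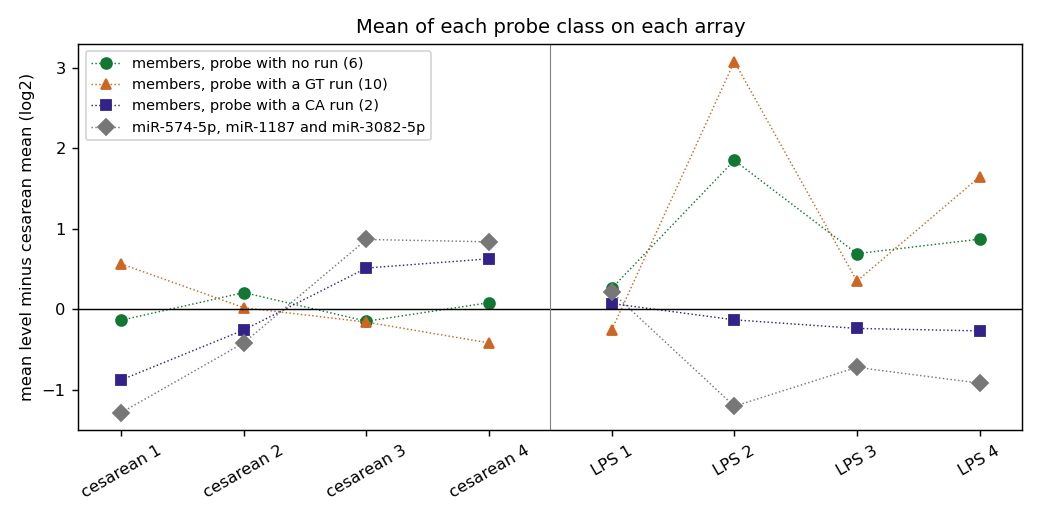
Mean level of each probe class minus its own mean over the cesarean arrays (y axis, log2) on each array (x axis), for members with no run, with a GT run and with a CA run, and for 3 of the 4 other tested miRNAs with CA-run probes (miR-672-5p, near the floor, is left out). The GT-run members reach 3.08 on LPS replicate 2 and -0.26 on LPS replicate 1, and the CA-run members and the 3 other miRNAs are highest on cesarean replicates 3 and 4.

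The CA-run members were set beside other miRNAs with the same kind of probe, chosen after their values were seen. No probe outside the families held a GT run, and 7 other miRNAs held a CA run, of which 4 were tested. One of them, miR-672-5p, read 3.75 to 4.14 on the cesarean arrays and 3.75 to 4.38 on the LPS arrays, at the floor on most of them, and did not share the pattern of the other 3 (difference 0.05 ± 0.24, SE; limma adjusted p = 0.928). Among these 3 is miR-574-5p, a miRNA whose mature strand is rich in UG.
miR-574-5p: acacactCACACACACAC
It read 9.18, 9.61, 10.81 and 10.73 on the cesarean arrays and 10.02, 8.82, 9.48 and 9.12 on the LPS arrays, so cesarean replicates 3 and 4 and LPS replicate 1 were its 3 highest arrays, as they were for miR-466i-5p. Differences were -0.72 ± 0.42 for miR-574-5p, -0.55 ± 0.59 for miR-1187 and -0.71 ± 0.52 for miR-3082-5p (SE), near the -0.77 of miR-466i-5p, and none passed (limma adjusted p = 0.304, 0.610 and 0.414). The mean of these 3 miRNAs relative to their cesarean mean was -1.29, -0.42, 0.87 and 0.84 on cesarean replicates 1 to 4 and 0.21, -1.21, -0.72 and -0.92 on LPS replicates 1 to 4. Whether these probes and that of miR-466i-5p read the same RNA was not tested.

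Several probes of 1 member gave like values. Among the 33 member probes tested, 0 passed in the fit over 887 probes, in which 51 passed (5.75%), 13 were higher at an unadjusted p of 0.05 against 114 of all probes (12.9%), and the median difference was 1.11 against -0.09 over all probes. Without LPS replicate 1, 12 member probes passed. Probes of 1 member differed from each other by at most 0.32 in their difference, the largest gap being that of miR-466f-3p (1.06 and 1.38). The 4 tested probes of miR-467a-3p lay between 1.11 and 1.23 and the 4 of miR-669p-3p between 1.42 and 1.47.

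The gap between LPS replicates 2 and 1, arrays of the same group chosen after their values were seen, is given by run length. For 11 of the 33 probes LPS replicate 1 was at the floor, 9 of them with a GT run and 2 with no run, and their gaps are lower bounds that the floor sets. The gap was 0.92 to 2.97 for the 9 tested member probes with no run. In the interval it was 1.99 to 2.25 for 5 probes with a GT run of 8, 1.66 to 2.23 for 2 probes with a run of 10 and 3.44 to 4.44 for 5 probes with a run of 12. Among GT-run probes not mapped to the interval, 1 with a run of 9 gave 3.03 and 2 with a run of 10 gave 2.79 and 3.11. There, 3 with a run of 11 gave 4.22 to 4.50 and 2 with a run of 12 gave 4.61 and 5.06. Of these only the miR-466i-3p probe had a listed position, so the others are unplaced. LPS replicate 1 was at the floor for 6 of the 7 probes with a run of 12, so no order by run length is read from these values. The 2 CA-run probes of miR-669n, with runs of 8, gave 0.32 and 0.49, and those of miR-466i-5p, with runs of 15 and 16, gave -0.96 and -0.90, opposite in sign to the GT runs. These probes share bases and arrays, so they are a description of 2 arrays and not repeated measurements.

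**Figure D5:**
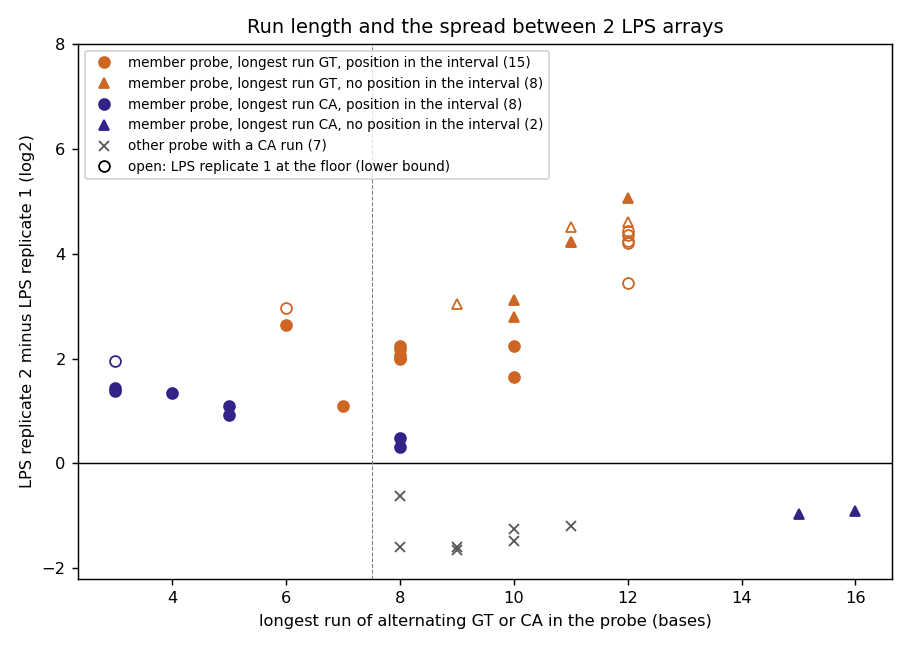
Level on LPS replicate 2 minus level on LPS replicate 1 (y axis, log2) against the longest run of alternating GT or CA bases in the probe (x axis, bases) for the 33 tested member probes and 7 other tested probes with a CA run. The dashed line marks the limit for a run, and open symbols are lower bounds, as for 6 of the 7 probes with a run of 12. GT-run probes lie above 0 and the CA-run probes of miR-466i-5p below it.

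Position in the interval and the run were then compared over probes, with no test, since members are not replicates. The 23 tested probes that map to the interval had a median difference of 1.11, and the 10 others had 1.16. Of these 10 only the miR-466i-3p probe had a listed position, and RefSeq places miR-466h-3p, which is among them, in Sfmbt2. All 10 of the others held a run, so position and run cannot be told apart in them. The 24 tested probes with a run had a median difference of 1.17 and the 9 without had 0.99. Without LPS replicates 2 and 4 the medians were 0.41 in the interval and -0.32 in the 10 others, and -0.07 with a run and 0.60 without, so both orders turned. No conclusion is drawn from this turn. Of the 6 no-run members, 4 had been tested through the LPS group alone, with cesarean arrays at the floor, and had little room to fall below 0. All 9 no-run probes lie in the interval, so the same limit holds for position. Within the GT-run class, the 5 members in the interval had a median difference of 1.22 and the 5 others 1.36 over all arrays. Without LPS replicates 2 and 4 these medians were 0.42 and -0.19. Both tested members with a GT run of 8 lie in the interval, so run length and position were not separated there. Medians without LPS replicates 2 and 4 were also taken over members with a GT run of at least 9. They were -0.088 for 3 in the interval and -0.19 for 5 others.

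The arms and families were described in the same way. The median difference was 1.23 over 10 tested 3p names and 0.90 over 5 tested 5p names, with all 10 of the 3p names and 4 of the 5p names above 0. By family it was 1.34 for 6 miR-466 names, 0.99 for 7 miR-467 names, 1.02 for 4 miR-669 names and 0.47 for the 1 miR-297 name. The miR-467 family held 6 of the 8 members higher at an unadjusted p of 0.05, miR-466 the other 2 and miR-669 none of its 4. All 7 tested miR-467 names lay higher with LPS over all arrays, and 6 of them still did so without LPS replicates 2 and 4, miR-467f being the exception. These counts and medians include members tested through the LPS group alone, among them miR-467a-5p and miR-467c-5p, and support no direction.

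Samples also differed in miRNAs known from particular tissues, and some of these lists moved with the arrays that the members turned on. All 4 striated muscle miRNAs listed (miR-1a-3p, miR-133a-3p, miR-133b-3p and miR-206-3p) were tested. Their mean level was 7.87, 5.07, 8.67 and 5.33 on LPS replicates 1 to 4 and 6.05 to 7.04 on the cesarean arrays. The liver miRNA miR-122-5p read 8.27, 5.04, 9.81 and 5.56 on LPS replicates 1 to 4 and 3.75 to 7.02 on the cesarean arrays. Among the LPS arrays, replicates 1 and 3 were thus higher in these miRNAs than replicates 2 and 4. For miR-122-5p, replicates 2 and 4 lay within the cesarean range. The order was the reverse for the 13 of 18 members that were highest on LPS replicates 2 and 4, but not for every member. The miR-200 group of epithelium was higher on all LPS arrays (mean level 7.60 to 8.28, against 6.54 to 7.09 on the cesarean arrays), with 3 of 5 past the threshold. The erythroid miRNAs were higher on all LPS arrays too (8.78 to 9.38, against 7.92 to 8.60), with 1 of 3 past it. The mesenchymal list had a median difference of -0.98 with 0 of 5 past it, and its mean level was lowest on LPS replicates 2 and 4 (7.02 and 6.98, against 7.30 to 8.20 on the other arrays). The leukocyte list, with 3 of 5 tested, had a median difference of 0.09 with 1 past the threshold, higher with LPS. Its mean level was 7.05, 7.24, 7.52 and 6.92 on LPS replicates 1 to 4 and 6.62 to 7.03 on the cesarean arrays. In the endothelial list 1 of 2 was tested, with a difference of -0.09 and 0 past the threshold. What part these tissues had in the members' values was not tested. In exosomes from a fluid, the amount of RNA from a tissue and the level of a miRNA within that tissue cannot be told apart.

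Other clusters known from imprinted loci, the placenta or the early embryo are given beside the members. The miR-322 group on the X chromosome, with 8 of 13 names tested, had a median difference of 1.11 with 2 called higher, and its mean level was highest on LPS replicate 2 as for the members (6.93, against 5.80, 5.85 and 6.09 on LPS replicates 1, 3 and 4 and 4.67 to 5.44 on the cesarean arrays). The imprinted Dlk1-Dio3 cluster had 32 of 78 names tested, 0 called and a median of 0.33. The early embryonic cluster that runs from miR-290 to miR-295 had 6 of 18 tested, 0 called and a median of -0.14. Its mean level too was highest on LPS replicate 2 (7.12, against 6.21, 6.02 and 6.59 on LPS replicates 1, 3 and 4 and 6.47 to 6.71 on the cesarean arrays). The pair miR-675 and miR-483 of the H19 and Igf2 locus had 3 of 4 tested, 0 called and a median of -0.49. No miRNA list for trophoblast other than the families themselves was used, so the source of the members in the fluid was not tested.

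Each slide position held part of the design. A single slide carried all 8 arrays, LPS in row 1 and cesarean in row 2, so row and group cannot be told apart. Each of the 4 columns held 1 array of each group. The median difference of the members within columns 1 to 4 was 0.13, 2.03, 0.40 and 0.98. It includes the members tested through the LPS group alone, where the filter favours higher levels with LPS. Its sign did not hold in every class. Over columns 1 to 4 the median was 0.31, 1.61, 0.94 and 0.74 for members with no run. It was -0.44, 3.30, 0.27 and 2.48 with a GT run, and 0.95, 0.13, -0.75 and -0.90 with a CA run. With the column as a block, 1 miRNA of the whole array passed and no member did, and 8 members were higher at an unadjusted p of 0.05.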

How the data were processed

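Exosomes were isolated from amniotic fluid by size-exclusion chromatography, and Cy3-labelled material was hybridised to 1-colour arrays, per the labels' protocols. The spot intensity values are linear, background-subtracted signals without scaling between arrays, made with Agilent Feature Extraction 10.7.1.1 per the file headers, whereas the submitters' processing notes name version 9.1. The deposited table gives log2 values normalized by the authors, with near-equal column medians (2.14 to 2.15), and each of its 8 columns matched its own array best over 336 miRNAs. It served as an alternative; the method of its normalization and its centring stay unknown.

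Control spots and outlier spots were left out (2.99% to 3.48% of 56430 miRNA spots per array, 0 saturated). Signals were scaled per array by the 75th percentile (211 to 448 signal units) over 618 probes detected on all arrays, set to a floor of 13.5 units (the median over arrays of the lowest scaled signal well above background) and taken to log2. The brightest probe stood for each miRNA. The test was limma (version 3.58.1, lmFit and eBayes, two-sided) in R 4.3.3, checked on simulated data. The number of arrays limits the precision. Named members were the 10 with the smallest p, the 4 brightest, the 2 of each family with the smallest p, and any past the threshold or with a bound. Other names were chosen after their values were seen. Members, lists, classes and tests were chosen with earlier results of these data known. Alternatives covered scaling, background, floor, filter, summary, test, slide column and each array left out.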

Additional observations from a re-analysis of the deposited data

Results flagged for a closer look

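Among 48 groups of 4 arrays (18 members and 6 means or counts, in each group of samples), 5 had 1 array far from the other 3 by Dixon's test, and chance marks about 1 in 20 groups. All 5 lie in the cesarean group, and in each the 3 other arrays were at the floor of 3.75, so any value above the floor stands apart. The values were 4.09 for miR-297a-3p and 4.45 for miR-466b-3p on cesarean replicate 2, 3.75 for miR-467a-5p on the same array (equal to the floor at this rounding), 3.81 for miR-467c-5p on cesarean replicate 4 and 4.10 for miR-669c-3p on cesarean replicate 1.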

How the results depend on the processing

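Of 404 member values over 23 alternatives, 386 kept direction and side of the threshold, 10 came past it, 7 turned, over 6 members, and that of miR-297a-3p became 0.00 with the median over probes. Without LPS replicates 2 and 4 these were miR-466h-3p (-0.60), miR-466q (-0.19), miR-467f (-0.53), miR-669c-3p (-0.088) and miR-669p-3p (-0.14). With the scanner software's total per miRNA they were miR-466f-3p (-0.14) and miR-466q (-0.70). The cause was not tested. The count of all miRNAs past the threshold (23) became 13 with the percentile over all probes, 1 without scaling, 1 with spike-in scaling, 9 with normexp, 8 with the scanner total, 15 with only miRNAs above background on all arrays, 2 without a filter and 1 with a block for the slide column. With 1 array left out it ranged from 3 (without cesarean replicate 3) to 79 (without LPS replicate 1). Members past the threshold (0) became 1 with the percentile over all probes, 1 with quantile normalization and 2 in the authors' value table, and ranged from 0 to 6 with 1 array left out, 6 only without LPS replicate 1. Member probes past it (0) became 1 with the percentile over all probes and 4 with quantile normalization, and ranged from 0 to 12. Members higher at an unadjusted p of 0.05 (8) became 2 without scaling, 4 with spike-in scaling, 3 with normexp, 4 with the median over probes, 4 with the scanner total, 3 with a floor 2 times as high, 4 under either filter and 3 without LPS replicates 2 and 4, and ranged from 4 to 15. The members' median difference (1.06) became 0.00 over all 61 names without a filter, most of them at the floor, and 0.28 without LPS replicates 2 and 4, and ranged from 0.53 to 1.41 with 1 array left out, lowest without LPS replicate 2. The median of probes in the interval minus that of probes not mapped to it (-0.05) became 1.78 with only miRNAs above background on all arrays and 0.73 without LPS replicates 2 and 4, and ranged from -0.44 to 0.21. The 1.78 sets 1.05 in the interval against -0.73, the difference of a CA-run probe of miR-466i-5p. Among members outside the interval only miR-466h-3p and miR-466i-5p were above background on all arrays. The median with a run minus without (0.18) became -0.67 without LPS replicates 2 and 4, and ranged from -0.11 to 0.38. The difference in members detected per array (3) ranged from 1.17 to 5.17. The labels give no shared replicate numbers, and the block for the slide column was the only pairing fitted. Signal over background is one limit, since 39 of 61 members were never above it.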
